A study of Rattus norvegicus with 9 samples.

Results

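Gene expression in the bladder was compared between obstructed rats, with or without tolterodine, and sham-operated rats. The 6 obstructed arrays are the 3 titled pBOO-3W and the 3 titled pBOO + tolterodine-3W, and the other 3 arrays of the series are titled sham operation, so all 9 arrays entered the comparison. The measure is the average of both obstructed group means minus the sham mean. Of 10106 genes with a value on every array, 2045 had all 6 obstructed arrays on one side of all 3 sham arrays. They are called separated genes here, and they include the changes that remained on the same side of sham in the rats given tolterodine.

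All rats were female and bladders were taken at 3 weeks. The pBOO rats had a partial bladder outlet obstruction, made by tying the proximal urethra around a catheter of 1 mm outer diameter. The tolterodine rats had the same obstruction and received tolterodine, an antagonist of muscarinic receptors for acetylcholine, with the dose and schedule not stated in the labels. The sham rats were operated without the tie, and no sham group with tolterodine was analysed here, so an effect of the drug without obstruction cannot be told apart. The labels give no strain, age or genotype. The labels state 5 specimens per group and do not say whether an array carries 1 animal or a pool, so p-values measure only the spread between these arrays. In the treatment protocol the letter S stands for obstruction and C for sham, while arrays titled sham have sample codes that begin with S and arrays titled pBOO codes that begin with C. The titles were followed, and each direction below rests on them. With the names of sham and pBOO exchanged, 3680 genes were separated, of which 803 were also separated under the titles.

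The bladder wall holds a muscle layer, the detrusor, which contracts when acetylcholine from parasympathetic nerves binds muscarinic M3 receptors, and which relaxes when noradrenaline binds β-adrenoceptors and raises cyclic AMP. When the outlet is narrowed the muscle works against a higher resistance, and the wall is known to thicken through muscle hypertrophy and the laying down of collagen and other matrix proteins. Tolterodine blocks the contractile signal at the receptor and leaves the narrowing in place. The series title concerns β-adrenoceptor signalling and matrix deposition by bladder muscle cells.

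Across arrays the upper quartile of the processed signal lay between 523 and 1441 intensity units, and all levels below are log2 intensities relative to it, so that 0 is an array's own 75th percentile. The share of spots well above background lay between 72.1% and 73.9% on the sham arrays and between 74.4% and 80.1% on the obstructed arrays, a difference of 3.71 percentage points (exact permutation test over 84 splits, two-sided p = 0.0476). The number of arrays limits the precision. Sham array 1 stood apart from the other sham arrays, with the adipocyte markers measured on every array averaging -1.95 against 0.42 and 0.23. Arrays of a group correlated more closely (median 0.976 for sham) than arrays of different groups, and the lowest median was between pBOO and tolterodine arrays (0.925). Both muscle and urothelium, the lining epithelium, were present on all arrays: smooth muscle actin (Acta2) lay between 5.74 and 6.53 and basal keratin Krt5 between 0.44 and 3.26. In bulk tissue, fewer cells of a type and less RNA per cell cannot be told apart.

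In limma's test of the pooled contrast, 3794 of 11049 genes changed at a Benjamini-Hochberg adjusted p under 0.05, which is 34.3%. Of these, 2216 were higher in the obstructed bladders (20.1%) and 1578 lower (14.3%). The median over all tested genes was 0.03 on the log2 scale. The split depended on scaling: with each array centred on its median, 1714 were higher and 2349 lower, and the median over all genes moved to -0.08. The separated genes made up 20.2% of those on every array, 1249 with the obstructed arrays above sham (12.4%) and 796 below (7.88%). Of the separated genes, 1845 also passed the test (18.3% of genes on every array), 1168 above (11.6%) and 677 below (6.7%). These counts describe the genes that the rule selects and carry no test of their own. Of the 3509 changed genes with a value on every array, 1664 overlapped between sham and obstructed arrays.

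The separated genes that passed the test differed in how the tolterodine group lay relative to the pBOO group. For 537 of the 1845 (29.1%) the tolterodine arrays were nearer to sham than the pBOO arrays, at an adjusted p under 0.05 in limma's test of tolterodine minus pBOO. For 124 (6.72%) they were farther from sham. For 464 (25.1%) the 95% interval of the difference lay within 0.5 log2 units of 0 on both sides, and these are called alike. For 720 (39%) the difference was not resolved in either sense. The pBOO and tolterodine arrays shared no slide, so a difference between them cannot be told apart from one between slides. A fixed block for slide compares tolterodine arrays 1 and 2 with sham arrays 2 and 3, and the pBOO arrays with sham array 1. Tolterodine array 3, alone on its slide, then adds nothing to the difference. With that block 374 genes were nearer to sham, of which 286 were among the 537, and 193 were alike. Leaving out 1 array gave 184 (without sham 3) to 837 (without sham 1) alike genes, so the size of this class is loosely set. With the 6 obstructed arrays as 1 group, so that the difference between its parts counted as spread, 952 genes passed the pooled test. Of the 79 genes described here 21 lost their call in that fit, and 20 of these differed between tolterodine and pBOO. Across all genes 41.3% differed between tolterodine and pBOO in this test, 42.5% between pBOO and sham, and 24.4% between tolterodine and sham (17.8% higher and 6.59% lower). Among genes nearer to sham and above it, the median change was 1.44 in pBOO and 0.56 with tolterodine. Among those farther and above it was 0.53 in pBOO and 1.27 with tolterodine. Of separated genes past the test, 8 of the 677 below sham (1.18%) and 116 of the 1168 above (9.93%) were farther from it with tolterodine. Over all genes the test of tolterodine minus pBOO also had more genes higher (26%) than lower (15.3%). The comparisons of pBOO and of tolterodine with sham share the sham arrays, so their values are set side by side without a measure of overlap.

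**Figure D1:**
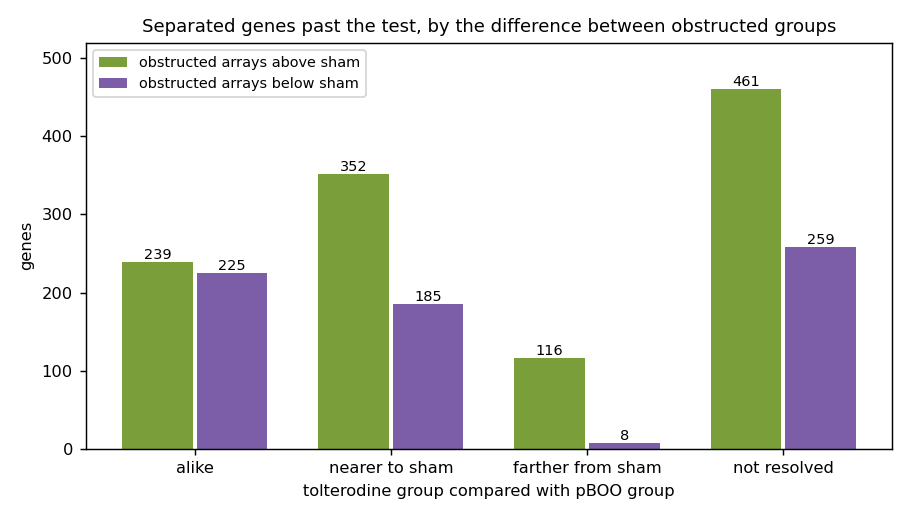
Number of separated genes past the test, by where the tolterodine group lay relative to the pBOO group, with green bars for genes whose obstructed arrays lay above sham and purple bars for those below. Among genes above sham, 352 were nearer to sham with tolterodine and 239 alike, and among genes below, 185 were nearer and 225 alike.

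Among separated genes well above background on all 9 arrays, the steepest rise was that of Kcnma1, the pore-forming subunit of the large-conductance calcium-activated potassium channel, which carries outward current in detrusor muscle. Its level was -0.95, -4.50 and -4.24 on the sham arrays, 0.03, 0.04 and -0.01 on the pBOO arrays and 1.35, 1.17 and 0.64 on the tolterodine arrays. All obstructed arrays lay above all sham arrays, and sham array 1 was far above the other sham arrays. The rise was 3.76 (SE 0.68, adjusted p = 0.00437) in limma's test, and 4.91 without sham array 1 against 3.13 without sham array 2. Its rise was 3.25 in pBOO and 4.28 with tolterodine. Polm, a DNA polymerase of end joining, shared that spread: it was 4.36, 1.39 and 1.68 on the sham arrays, 4.79, 4.55 and 4.78 on the pBOO arrays and 5.44, 5.27 and 5.63 on the tolterodine arrays, a rise of 2.60 (SE 0.56, adjusted p = 0.0088). Without sham array 1 the rise of Polm was 3.54, and within the slide of the pBOO arrays and sham array 1 it was 0.35. Within that slide the rise of Kcnma1 was 0.97. That slide holds 1 sham array, so its values carry no spread between sham arrays and are given without a test.

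Fam180a, another leading rise, was -3.73, -3.43 and -3.67 on the sham arrays, -1.55, -1.58 and -1.52 on the pBOO arrays and -0.48, -0.43 and -0.46 on the tolterodine arrays, and its groups stood in 3 steps without overlap. The pooled rise of Fam180a was 2.61 (SE 0.10, adjusted p = 9.34e-06), and tolterodine exceeded pBOO by 1.09 (95% interval 0.84 to 1.35). Atp2b4, a plasma membrane pump that moves calcium out of the cell, was -5.11, -4.43 and -4.64 on the sham arrays, -0.67, -0.90 and -0.80 on the pBOO arrays and -3.31, -3.31 and -3.24 on the tolterodine arrays. It rose by 2.69 (SE 0.15, adjusted p = 2.85e-05), and the tolterodine arrays lay between sham and pBOO. Prkaa2, the α2 catalytic subunit of the energy sensor AMP kinase, took the same order with -4.89, -5.04 and -5.03 on the sham arrays, -1.38, -1.59 and -1.54 on the pBOO arrays and -3.83, -3.68 and -3.88 on the tolterodine arrays. Prkaa2 rose by 2.34 (SE 0.10, adjusted p = 1.36e-05). With the obstructed arrays as 1 group the calls of Atp2b4 (adjusted p = 0.0523) and Prkaa2 (adjusted p = 0.0603) were lost. Zcchc24, which encodes a zinc finger protein, was -4.33, -5.22 and -4.94 on the sham arrays, -0.87, -1.25 and -1.07 on the pBOO arrays and -2.57, -2.29 and -3.03 on the tolterodine arrays and rose by 2.98 (SE 0.22, adjusted p = 9.97e-05).

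Adamtsl4, a secreted protein that binds fibrillin microfibrils, rose by 2.26 (SE 0.12, adjusted p = 2.2e-05), with 3.09 in pBOO and 1.43 with tolterodine. The rises of Pwwp3b (2.14, SE 0.24) and of the inositol transporter Slc2a13 (2.07, SE 0.12) also came down by over 1 log2 unit with tolterodine. Arhgap28, an activator of GTP hydrolysis on small GTPases, went the other way, with 1.97 in pBOO and 2.57 with tolterodine. The forkhead factor Foxe1 rose by 2.06 (SE 0.36, adjusted p = 0.00374) and Sh3d21 by 2.05 (SE 0.47, adjusted p = 0.0111), and in both tolterodine array 3 was the highest of the 9. The call of Sh3d21 was lost with the obstructed arrays as 1 group (adjusted p = 0.0665). Within the slide of pBOO and sham array 1 the rise was 0.37 for Sh3d21 and 0.91 for Foxe1. Most of these 12 rises were of genes that lay below the array's 75th percentile on all sham arrays; Polm was above it on all 3.

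Some genes were not well above background on any sham array and were on all measured obstructed arrays, so that only a lower bound on the fold can be given. Each bound divides the obstructed mean by a sham mean in which every array stands at its dimmest signal well above background, or at the gene's own signal where that was brighter. Cnr1, the cannabinoid receptor CB1, was at least 5.29-fold higher, with obstructed levels of -2.26, -3.46 and -2.85 in pBOO and -3.54, -3.37 and -3.92 with tolterodine (limma's adjusted p = 0.000112). Map1a, a protein that binds microtubules, was at least 3.78-fold higher (adjusted p = 0.00018), and Tns1, a focal adhesion protein that binds actin, at least 3.54-fold (adjusted p = 0.000105). The lens crystallin gene Crygf was at least 3.60-fold higher (adjusted p = 0.00532), with pBOO array 1 dropped for a spot flag. Without pBOO array 2 that probe had too few arrays, and another, dimmer probe of Crygf gave 0.57 (adjusted p = 0.3), so its probes disagreed. In all, 90 genes had such a bound above 1 in the higher direction. With a normexp background correction the change was 0.44 log2 units for Tns1 (adjusted p = 0.0941) and 0.68 for Crygf (adjusted p = 0.133). Both calls were lost, and both values lay below the stated bounds, which hold for the processed signal only.

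**Figure D2:**
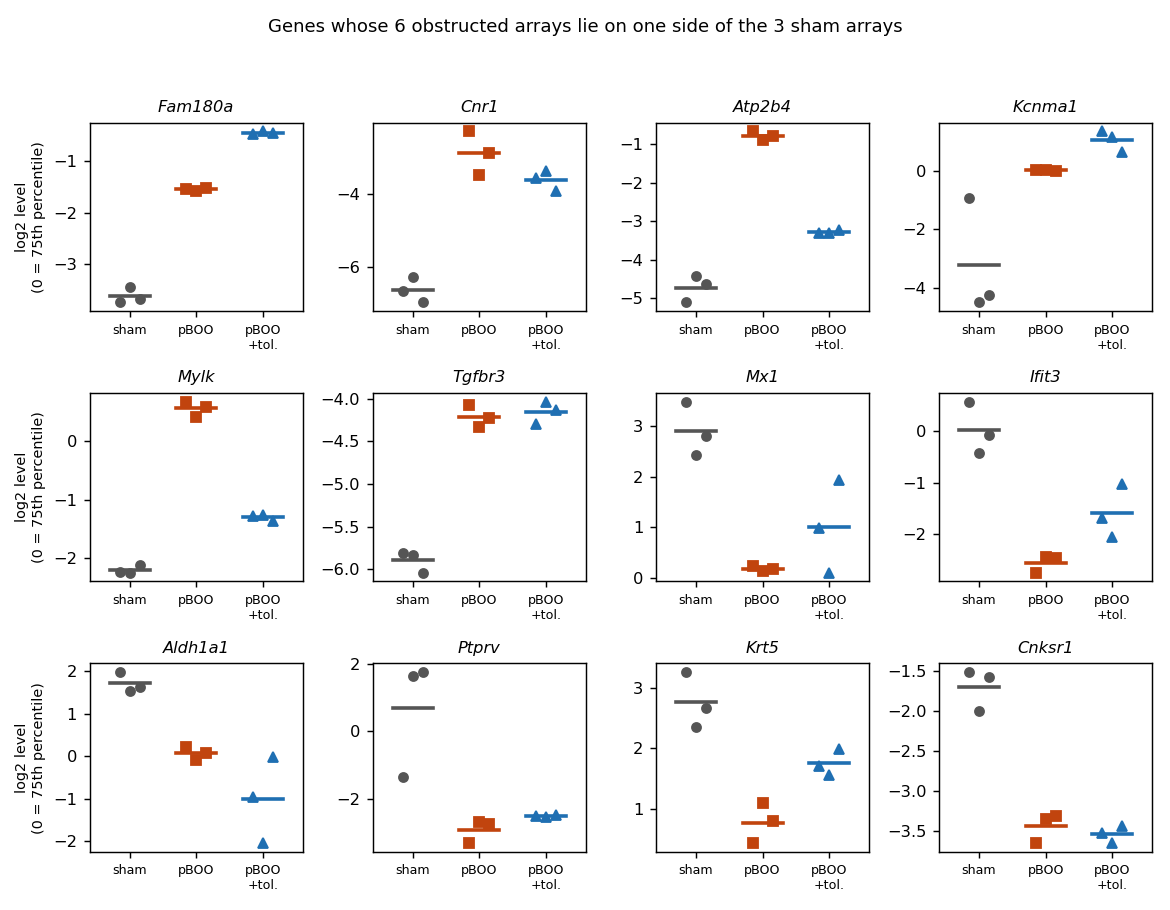
Log2 level of 12 genes on each array, relative to the array's 75th percentile, with grey circles for sham, orange squares for pBOO, blue triangles for pBOO with tolterodine and bars for group means. In each panel the 6 obstructed arrays lie on one side of the 3 sham arrays, and Kcnma1 and Ptprv show sham array 1 apart from the other sham arrays.

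Genes of the contractile apparatus were higher in the obstructed bladders and lay nearer to sham with tolterodine. Of 30 entries of the smooth muscle contraction list 20 were tested, 6 were lost to spot flags, and 17 of the 20 rose while none fell, where 20.1% of all genes rose and 14.3% fell. The median was 1.37 for the pooled contrast, 2.15 for pBOO and 0.37 for tolterodine, against 0.03 over all genes. Of the 15 members on every array, 8 were separated above sham and passed the test, and 7 of these were nearer to sham with tolterodine. Among all genes on every array 11.6% were separated above sham past the test, and 30.1% of those were nearer. The list median was 0.38 within the slide of tolterodine arrays 1 and 2 and sham arrays 2 and 3, and 2.12 within the slide of the pBOO arrays and sham array 1. The mean level of the 15 members on every array was -0.96 to -0.91 on the sham arrays, 0.99 to 1.19 on the pBOO arrays and -0.59 to -0.40 on the tolterodine arrays. The pooled change thus averages groups that differ from each other. Lmod1, leiomodin, which nucleates actin filaments in smooth muscle, was -3.63, -2.80 and -3.27 on the sham arrays, 0.51, -0.21 and 0.15 on the pBOO arrays and -2.59, -2.60 and -2.44 on the tolterodine arrays. The tolterodine arrays of Lmod1 lay just above the highest sham array and far below the pBOO arrays. Its pooled rise was 2.03 (SE 0.20, adjusted p = 0.000335), with 3.38 in pBOO and 0.69 with tolterodine. Within the slide of tolterodine and sham arrays, the difference of Lmod1 was 0.44 (adjusted p = 0.0891).

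Mylk, the myosin light chain kinase that starts contraction, was -2.24, -2.25 and -2.11 on the sham arrays, 0.68, 0.41 and 0.59 on the pBOO arrays and -1.27, -1.26 and -1.37 on the tolterodine arrays. Both obstructed groups stood clear of sham and of each other, and the rise was 1.83 (SE 0.10, adjusted p = 2.2e-05). Rock2, a kinase that keeps the light chain phosphorylated, was -2.37, -2.50 and -2.44 on the sham arrays, -0.71, -0.71 and -0.68 on the pBOO arrays and -1.14, -0.91 and -1.21 on the tolterodine arrays. The groups of Rock2 were also clear of each other, but most of the rise remained with tolterodine: 1.74 in pBOO and 1.35 with tolterodine, with a pooled rise of 1.54 (SE 0.10, adjusted p = 4.35e-05). Myh11, the smooth muscle myosin heavy chain, was -0.16, 1.53 and 1.33 on the sham arrays, 3.26, 3.64 and 3.58 on the pBOO arrays and 0.92, 1.05 and 0.79 on the tolterodine arrays. It passed the test with 1.31 (SE 0.33, adjusted p = 0.0165) and was not separated, since its tolterodine arrays lay among the sham arrays. Within the slide shared by tolterodine and sham arrays its change was -0.44. Acta2 was 6.20, 5.74 and 6.04 on the sham arrays, 6.22, 6.24 and 6.42 on the pBOO arrays and 6.04, 5.83 and 6.53 on the tolterodine arrays, and its pooled difference of 0.22 (SE 0.17, adjusted p = 0.334) did not pass the test; with quantile scaling it was 0.61 (adjusted p = 0.00638). With the obstructed arrays as 1 group, the calls of Lmod1 (adjusted p = 0.132), Mylk (adjusted p = 0.0657) and Myh11 (adjusted p = 0.317) were lost.

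The transcription factors of smooth muscle were separated above sham in 5 of 10 tested members, and 7 of the 10 rose. Among all genes tested 20.1% rose and 14.3% fell, and 11.6% of genes on every array were separated above sham past the test. Myocd, myocardin, the coactivator that drives contractile genes with serum response factor, was -4.60, -4.15 and -4.25 on the sham arrays, -2.86, -3.18 and -2.94 on the pBOO arrays and -3.46, -3.28 and -3.81 on the tolterodine arrays. It rose by 1.07 (SE 0.15, adjusted p = 0.00166), and the tolterodine minus pBOO difference was -0.52. Of 12 tested genes of caveolae and the membrane skeleton, 8 rose, none fell and 4 were separated past the test (median 0.84). Promoters were searched for the CArG box, the DNA element bound by serum response factor, in 250 bases before to 50 after the start of 9034 tested genes. It was present on either strand in 1.29% of the genes separated above sham that passed the test, in 1.73% of those below and in 1.23% of all.

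More of the ion channel genes were higher than lower. Where 20.1% of all genes rose and 14.3% fell, 14 of 22 tested channel genes rose and 4 fell. The falls were near that share. Of genes on every array 11.6% were separated above sham and past the test, and 9 of these channel genes were. Their median was 0.93 (1.15 in pBOO and 0.37 with tolterodine), and 0.08 within the slide of tolterodine and sham arrays. Cacna1c, the pore of the L-type calcium channel through which calcium enters detrusor cells, was -3.76, -3.99 and -3.82 on the sham arrays, -0.38, -1.39 and -0.85 on the pBOO arrays and -2.99, -2.99 and -3.05 on the tolterodine arrays. Its groups did not overlap, and its pooled rise of 1.92 (SE 0.19, adjusted p = 0.000338) was made up of 2.98 in pBOO and 0.85 with tolterodine. Of 17 tested genes of calcium stores and pumps 6 rose, none fell and 11 did not pass the test (median 0.50, with 0.79 in pBOO and 0.20 with tolterodine). Of all genes separated above sham past the test 30.1% were nearer to sham with tolterodine, as were all 5 such members here. Among them Atp2a3, a pump that loads the endoplasmic reticulum with calcium, was -5.30, -4.61 and -4.84 on the sham arrays, -1.61, -2.14 and -1.90 on the pBOO arrays and -3.88, -3.63 and -4.29 on the tolterodine arrays. It rose by 2.01 (SE 0.20, adjusted p = 0.000344). The calls of Cacna1c (adjusted p = 0.0914) and Atp2a3 (adjusted p = 0.0731) were lost with the obstructed arrays as 1 group.

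The M2 and M3 muscarinic receptors were higher in both obstructed groups, while Chrm5 fell by 0.75 and Chrm4, with a difference of 0.08, did not pass the test. Chrm3, the M3 receptor that triggers detrusor contraction, was -3.06, -2.46 and -2.61 on the sham arrays, -0.19, -0.82 and -0.38 on the pBOO arrays and -1.92, -1.87 and -2.10 on the tolterodine arrays. Its 3 groups were clear of each other, in the order sham, tolterodine, pBOO. The pooled rise was 1.50 (SE 0.18, adjusted p = 0.000669), with 2.24 in pBOO, 0.75 with tolterodine, and a tolterodine minus pBOO difference of -1.50 (95% interval -1.96 to -1.04). Its call was lost with the obstructed arrays as 1 group (adjusted p = 0.0739). Chrm2, the M2 receptor, which lowers cyclic AMP, was -5.29, -4.65 and -4.77 on the sham arrays, -4.04, -4.07 and -3.86 on the pBOO arrays and -4.05, -3.69 and -4.32 on the tolterodine arrays. Its obstructed groups overlapped each other and lay above sham, with a pooled rise of 0.90 (SE 0.18, adjusted p = 0.00604) and a tolterodine minus pBOO difference of -0.03 (95% interval -0.50 to 0.43), which places it among the alike genes. With normexp background correction the change of Chrm2 was 0.17 (adjusted p = 0.495). Across the list of muscarinic receptors and their signalling, 10 of 24 tested genes rose and 1 fell, against 20.1% and 14.3% over all genes. Separated above sham past the test were 5, where 11.6% of genes on every array were.

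Neither Adrb1 nor Adrb3, which encode β-adrenoceptors, passed the pooled test. Adrb3, the subtype taken to relax the human detrusor, was -5.27, -2.25 and -2.60 on the sham arrays, -0.45, -1.17 and -0.70 on the pBOO arrays and -4.88, -4.63 and -4.73 on the tolterodine arrays. Its pBOO arrays lay above sham and its tolterodine arrays below sham arrays 2 and 3, so the pooled difference was 0.61 (SE 0.58, adjusted p = 0.44) and the gene was not separated. Sham array 1 lay below the tolterodine arrays for Adrb3, and without it the pooled value was -0.34. The value was -2.33 (adjusted p = 0.00179) within the slide of tolterodine and sham arrays and 1.08 (adjusted p = 0.00523) with slide as a fixed block. Within the slide of pBOO and sham array 1 it was 4.50, with no measure of the spread between sham arrays there. Adrb1 was -4.56, -4.78 and -4.28 on the sham arrays, -4.57, -4.53 and -4.17 on the pBOO arrays and -3.47, -3.63 and -4.60 on the tolterodine arrays, with overlap between all groups and a pooled difference of 0.38 (SE 0.25, adjusted p = 0.264). The test of Adrb1 was passed without tolterodine array 3, the lowest of its group (0.55, adjusted p = 0.0228), and with slide as a fixed block (0.56, adjusted p = 0.0278) or a random block (0.52, adjusted p = 0.0494).

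Downstream of these receptors 8 of 24 tested genes of β-adrenoceptor and cyclic AMP signalling rose and 1 fell, against 20.1% and 14.3% over all genes, with a median of 0.26. Prkacb, a catalytic subunit of protein kinase A, was -4.55, -5.94 and -5.56 on the sham arrays, -2.81, -2.71 and -2.70 on the pBOO arrays and -3.57, -3.52 and -3.32 on the tolterodine arrays, and it was well above background on 1 of 3 sham arrays. It rose by 2.25 (SE 0.26, adjusted p = 0.000636) and was separated. Grk2, the kinase that desensitises β-adrenoceptors, was -0.35, -0.57 and -0.55 on the sham arrays, -1.35, -1.12 and -1.17 on the pBOO arrays and -0.65, -0.73 and -0.73 on the tolterodine arrays. Its obstructed arrays all lay below sham, the fall was -0.47 (SE 0.10, adjusted p = 0.00751), and tolterodine lay nearer to sham by 0.51. Within the slide of tolterodine and sham arrays the difference was -0.13 (adjusted p = 0.208), and the call was also lost with the obstructed arrays as 1 group (adjusted p = 0.131). Of 14 tested genes of purinergic receptors and ATP breakdown, 3 rose and 2 fell, which is near the 20.1% and 14.3% over all genes. Separated below sham past the test was 1, where 6.7% of genes on every array were.

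**Figure D3:**
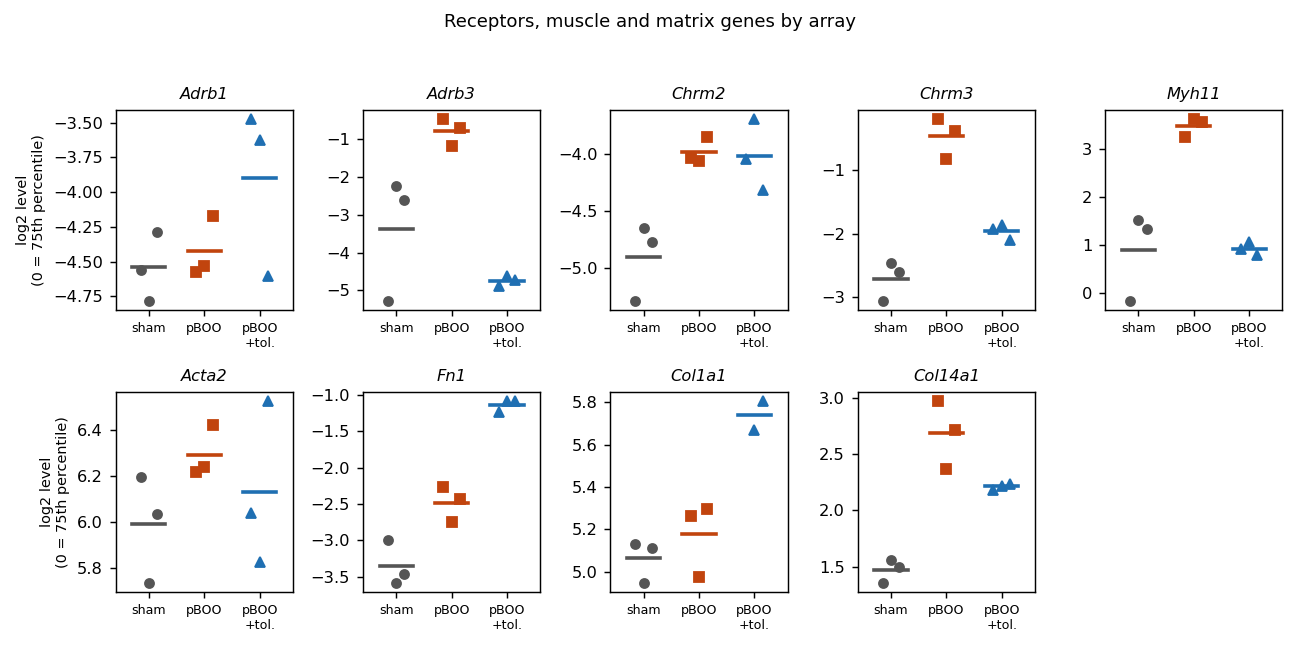
Log2 level of 9 receptor, muscle and matrix genes on each array, relative to the array's 75th percentile, with symbols as for the leading separated genes and bars for group means. Chrm2, Chrm3, Fn1 and Col14a1 are separated, and Adrb1, Adrb3, Myh11, Acta2 and Col1a1 are not.

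Extracellular matrix lists had medians above sham in both obstructed groups, while single members differed between pBOO and tolterodine in either direction. For comparison, 20.1% of all genes rose and 14.3% fell. All tested collagen chains but 1 rose (7 of 8, median 0.86, with 0.73 in pBOO and 0.86 with tolterodine), out of 22 entries, since 11 had no probe of that name and 2 were lost to spot flags. Of 21 tested glycoproteins and elastic fibre genes 14 rose and none fell (median 0.75, with 0.87 and 0.74). Of 15 tested proteoglycan genes 8 rose and none fell (median 0.73, with 1.00 and 0.70). In limma's test of tolterodine minus pBOO 6 of the 21 glycoproteins were higher with tolterodine and 8 lower, 2 of the 8 collagens higher and 1 lower, and 2 of the 15 proteoglycan genes higher and 3 lower. Over all genes 26% were higher with tolterodine in that test and 15.3% lower. Separated above sham past the pooled test were 3 collagens, 8 glycoproteins and 6 proteoglycans, where 11.6% of genes on every array were. The fibroblast markers, part of which are matrix genes too, rose in 6 of 12 with a mean level of -0.10 to 0.18 on the sham arrays, 0.66 to 0.75 on the pBOO arrays and 0.66 to 0.83 on the tolterodine arrays, and their part in the matrix result was not tested.

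Fn1, fibronectin, the glycoprotein on which other matrix fibres assemble, was -3.00, -3.58 and -3.47 on the sham arrays, -2.27, -2.75 and -2.43 on the pBOO arrays and -1.24, -1.09 and -1.08 on the tolterodine arrays. The groups of Fn1 were clear of each other and the tolterodine arrays were the highest, so that the pooled rise of 1.54 (SE 0.16, adjusted p = 0.000368) was made up of 0.87 in pBOO and 2.21 with tolterodine. The rise of Fn1 was 0.52 within the slide of pBOO and sham array 1. Within that of tolterodine and sham arrays it was 2.36 (adjusted p = 0.00148). With the obstructed arrays as 1 group its call was lost (adjusted p = 0.0523). Fbln1, fibulin-1 of the elastic fibres and basement membranes, was -2.05, -2.76 and -2.57 on the sham arrays, 0.03, -0.27 and -0.17 on the pBOO arrays and -1.18, -1.19 and -1.25 on the tolterodine arrays. It rose by 1.79 (SE 0.16, adjusted p = 0.00018) in the order sham, tolterodine, pBOO. Ltbp1, which tethers latent TGF-β to the matrix, was -4.61, -4.39 and -4.27 on the sham arrays, -1.81, -1.98 and -1.82 on the pBOO arrays and -3.46, -3.29 and -3.59 on the tolterodine arrays. Its rise was 1.76 (SE 0.11, adjusted p = 4.94e-05), with 2.55 in pBOO and 0.97 with tolterodine.

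Col14a1, a collagen on the surface of collagen I fibrils, was 1.36, 1.56 and 1.49 on the sham arrays, 2.97, 2.37 and 2.72 on the pBOO arrays and 2.18, 2.22 and 2.24 on the tolterodine arrays. All obstructed arrays exceeded sham, by 0.98 (SE 0.13, adjusted p = 0.00131) in the pooled test. Col5a3, a chain of collagen V, was -1.97, -1.28 and -1.47 on the sham arrays, 0.02, -0.42 and -0.16 on the pBOO arrays and -0.67, -0.44 and -0.75 on the tolterodine arrays and rose by 1.17 (SE 0.17, adjusted p = 0.00166). Col1a1, the main chain of collagen I, was 5.13, 4.95 and 5.11 on the sham arrays, 5.26, 4.98 and 5.30 on the pBOO arrays and 5.67 and 5.81 on the tolterodine arrays, where tolterodine array 1 was dropped for a spot flag. With a missing value it could not count among the separated genes, and 1 pBOO array lay within the sham range. Its pooled rise was 0.39 (SE 0.12, adjusted p = 0.0345). The call was lost with normexp (adjusted p = 0.0574), with array medians (adjusted p = 0.131), with the mean over its probes (0.26, adjusted p = 0.378) and with slide as a fixed block (adjusted p = 0.0704). As 1 obstructed group the rise was 0.34 (adjusted p = 0.312), and within the slide of pBOO and sham array 1 it was 0.05. The call was also lost without sham array 2 (adjusted p = 0.119) or 3 (adjusted p = 0.0935) and without pBOO array 1 (adjusted p = 0.0575) or 3 (adjusted p = 0.0821).

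Gpc3, a cell surface heparan sulfate proteoglycan, was -2.99, -1.18 and -1.46 on the sham arrays, -0.50, -0.30 and -0.35 on the pBOO arrays and -0.55, -0.53 and -0.25 on the tolterodine arrays. It was separated with a rise of 1.46 (SE 0.34, adjusted p = 0.0124), and sham array 1 was the lowest of the 9. Plod1, which hydroxylates collagen lysines before crosslinking, was -0.70, -1.07 and -1.01 on the sham arrays, 0.90, 0.28 and 0.60 on the pBOO arrays and 0.02, 0.03 and 0.26 on the tolterodine arrays and rose by 1.28 (SE 0.15, adjusted p = 0.000803). Across the crosslinking enzymes, proteases and inhibitors 9 of 28 rose and 3 fell, against 20.1% and 14.3% over all genes (median 0.12, with 0.11 in pBOO and 0.49 with tolterodine).

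In the TGF-β and BMP families 7 of 27 tested genes rose and 3 fell (median 0.17), which is near the 20.1% and 14.3% over all genes. Tgfb2, a TGF-β ligand, was -2.97, -3.70 and -3.31 on the sham arrays, -1.65, -2.08 and -1.83 on the pBOO arrays and -2.24, -2.11 and -2.51 on the tolterodine arrays. It rose by 1.26 (SE 0.18, adjusted p = 0.00147) and was separated, while its sister ligand Tgfb3 was separated below sham with a fall of -1.15. Tgfbr3, betaglycan, the co-receptor that presents TGF-β2 to its receptors, was -5.81, -5.84 and -6.04 on the sham arrays, -4.07, -4.34 and -4.22 on the pBOO arrays and -4.30, -4.03 and -4.13 on the tolterodine arrays. It was not well above background on any sham array and is given as at least 2.74-fold higher (adjusted p = 4.57e-05). Its tolterodine minus pBOO difference of 0.05 (95% interval -0.23 to 0.34) placed it among the alike genes. With normexp its call was lost and its change was 0.35 log2 units (adjusted p = 0.136), below that bound. Inhbb, the subunit of activin B, was -0.41, -0.38 and -0.11 on the sham arrays, -2.58, -1.75 and -2.17 on the pBOO arrays and -1.06, -1.10 and -2.42 on the tolterodine arrays. It fell by 1.54 (SE 0.31, adjusted p = 0.00669), with tolterodine array 3 among the pBOO values, and the mean over its probes gave -0.44 (adjusted p = 0.232), so its probes disagreed. Of 29 growth factors and receptors 9 rose and 4 fell, and of 22 immediate early genes 7 rose and 2 fell (median 0.05, with -0.25 in pBOO and 0.30 with tolterodine), again beside 20.1% and 14.3% over all genes.

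Genes induced by interferon were lower in both obstructed groups. Of 26 tested members 18 fell and none rose, with a median of -1.05 (-1.23 in pBOO and -0.82 with tolterodine). Of the 21 on every array, 13 were separated below sham and passed the test, where 6.7% of all such genes were. The difference between tolterodine and pBOO was not resolved for 10 of the 13, and 3 were nearer to sham with tolterodine. Among all genes separated below sham past the test 38.3% were not resolved and 27.3% were nearer. The mean level of the 21 members on every array was -0.04 to 0.70 on the sham arrays, -1.09 to -0.90 on the pBOO arrays and -1.03 to -0.24 on the tolterodine arrays. The median was -0.89 within the slide of tolterodine and sham arrays and -1.77 within that of pBOO and sham array 1. Sham array 1 was the highest of the sham arrays and tolterodine array 3 the highest of the tolterodine arrays in each of Mx1, Isg15 and Ifit3.

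Mx1, a GTPase that blocks viral replication, was 3.47, 2.42 and 2.79 on the sham arrays, 0.25, 0.14 and 0.18 on the pBOO arrays and 1.00, 0.11 and 1.93 on the tolterodine arrays. It fell by 2.29 (SE 0.37, adjusted p = 0.00253), and the tolterodine arrays were spread widely below the sham arrays. Isg15, a ubiquitin-like modifier, was 3.72, 2.68 and 3.05 on the sham arrays, 1.00, 0.79 and 0.96 on the pBOO arrays and 1.19, 0.29 and 2.14 on the tolterodine arrays. Its fall was -2.09 (SE 0.37, adjusted p = 0.00392). Ifit3, which belongs to the family that binds viral RNA, was 0.56, -0.43 and -0.08 on the sham arrays, -2.74, -2.43 and -2.45 on the pBOO arrays and -1.69, -2.04 and -1.02 on the tolterodine arrays and fell by 2.08 (SE 0.26, adjusted p = 0.000977). Cxcl10, a chemokine induced by interferon γ, was 1.31, 0.35 and 0.69 on the sham arrays, -0.70, -1.09 and -0.84 on the pBOO arrays and -0.15, -0.38 and -0.06 on the tolterodine arrays and fell by 1.32 (SE 0.20, adjusted p = 0.00213).

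Interferon acts on these genes through a known promoter element, so stretches of 5 promoters that hold it are printed here, from RefSeq sequences on GRCr8. The element searched was the interferon response element, a pair of GAAA runs 2 bases apart that interferon regulatory factors and STAT complexes bind, on either strand. It was added after the values of these genes had been seen. It was found in 6 of the 9 separated interferon genes with a promoter in the table (66.7%), in 13 of the 20 tested members of the list that have a promoter there (65%) and in 3.11% of all 9034 promoters. Over all separated genes past the test it was found in 7.44% of those below sham and 2.15% of those above. A match is a description and not a shown binding site. Capitals mark the match as read 5′ to 3′ along the strand of the gene, where TTTC at both ends is the element on the opposite strand.
Ifit3: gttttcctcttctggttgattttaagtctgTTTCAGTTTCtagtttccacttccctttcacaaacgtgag
Irf7: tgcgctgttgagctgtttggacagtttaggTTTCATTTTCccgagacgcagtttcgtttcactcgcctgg
Rsad2: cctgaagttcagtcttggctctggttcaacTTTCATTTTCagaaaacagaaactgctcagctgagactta
Isg20: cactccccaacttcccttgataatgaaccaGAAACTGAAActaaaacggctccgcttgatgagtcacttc
Tap2: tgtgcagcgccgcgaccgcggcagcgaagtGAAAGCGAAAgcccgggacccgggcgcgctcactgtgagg
The stretch of Ifit3 is chr1:241527252-241527321, plus strand, and that of Irf7, a master factor of the response, is chr1:205800053-205800122, minus strand. That of the antiviral enzyme Rsad2 is chr6:48788228-48788297, minus strand. The exonuclease Isg20 is at chr1:142239937-142240006, plus strand, and the peptide transporter subunit Tap2 at chr20:4652298-4652367, minus strand. For the other motifs the shares among genes above, genes below and all promoters were 0.753%, 0.692% and 0.852% for the E2F site TTTGGCGC. They were 4.41%, 5.19% and 3.76% for the AP-1 site TGAGTCA, and 8.93%, 7.96% and 8.5% for the TATA box TATAAA.

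The other leading falls were of varied genes. Fcrla, an Fc receptor-like protein of B cells, was 4.37, 3.31 and 3.65 on the sham arrays, -1.58, -0.78 and -1.12 on the pBOO arrays and 1.15, -1.33 and 2.67 on the tolterodine arrays. All obstructed arrays lay below sham, and the tolterodine arrays ranged from the pBOO level to below the lowest sham array. The fall was -3.94 (SE 0.72, adjusted p = 0.00453). Ptprv, a receptor-type tyrosine phosphatase, was -1.35, 1.65 and 1.76 on the sham arrays, -3.32, -2.69 and -2.76 on the pBOO arrays and -2.53, -2.55 and -2.49 on the tolterodine arrays. Its sham array 1 stood near the obstructed arrays, and the fall of -3.41 (SE 0.61, adjusted p = 0.00416) became -4.43 without that array. Tp53i11, with a fall of -2.22 (SE 0.47, adjusted p = 0.00794), and the actin-binding protein Avil, with -1.98 (SE 0.50, adjusted p = 0.0169), had sham array 1 as the lowest sham array too. Without sham array 1 they came to -2.96 and -2.76, and the call of Avil was lost without sham array 2 (adjusted p = 0.0641) or sham array 3 (adjusted p = 0.0734). Within the slide of pBOO and sham array 1 Avil was -0.17, Tp53i11 -0.68 and Ptprv -1.57.

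Aldh1a1, an enzyme that makes retinoic acid, was 1.99, 1.53 and 1.63 on the sham arrays, 0.21, -0.08 and 0.08 on the pBOO arrays and -0.95, -2.04 and -0.01 on the tolterodine arrays. It fell by 2.18 (SE 0.36, adjusted p = 0.00308), and 1 tolterodine array lay among the pBOO values. Gkn1, a gastrokine secreted by epithelium, was 1.65, 1.10 and 1.23 on the sham arrays, -1.76, -1.33 and -1.60 on the pBOO arrays and -0.42, -0.96 and 0.30 on the tolterodine arrays. It fell by 2.29 (SE 0.26, adjusted p = 0.000551). Ivl, involucrin, a protein of the envelope of differentiated squamous cells, was 0.73, 0.30 and 0.38 on the sham arrays, -3.06, -1.74 and -2.22 on the pBOO arrays and -0.91, -1.15 and -0.14 on the tolterodine arrays. Its fall was -2.0 (SE 0.31, adjusted p = 0.00222), and tolterodine was nearer to sham by 1.61. The call of Ivl was lost with the obstructed arrays as 1 group (adjusted p = 0.0549). The homeobox gene Rhox5 fell by 2.01 (SE 0.37, adjusted p = 0.00444) and RT1-M4, a class I histocompatibility gene, by 2.07 (SE 0.31, adjusted p = 0.00208). RT1-M4 was -0.93 within the slide of pBOO and sham array 1. RT1 genes have near-identical copies, so the probe of RT1-M4 may read more than 1 gene.

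Urothelial markers fell in 13 of 23 tested members, and 1 rose (median -0.70, with -0.77 in pBOO and -0.19 with tolterodine). The shares over all genes were 14.3% lower and 20.1% higher. Of 36 entries 4 were lost to spot flags. The mean level of the 15 markers on every array was 1.14 to 1.24 on the sham arrays, 0.04 to 0.75 on the pBOO arrays and 0.68 to 0.73 on the tolterodine arrays. The obstructed arrays were below the sham arrays, while the 17 contractile genes rose, and the part of tissue makeup in either result was not tested. Krt5, the keratin of basal urothelium, was 3.26, 2.35 and 2.66 on the sham arrays, 0.44, 1.09 and 0.81 on the pBOO arrays and 1.72, 1.56 and 1.99 on the tolterodine arrays. It fell by 1.49 (SE 0.22, adjusted p = 0.0018), with the tolterodine arrays between pBOO and sham, and Pparg was the other separated member past the test.

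Genes of the respiratory chain were lower by smaller amounts in both obstructed groups, and those of cholesterol synthesis mainly in pBOO. In the respiratory chain 12 of 25 tested subunits fell and none rose (median -0.33, with -0.46 in pBOO and -0.26 with tolterodine). By comparison 14.3% of all genes fell and 20.1% rose. The mean level of the 18 subunits on every array was lower on all pBOO and tolterodine arrays than on the sham arrays. It was 2.60 to 2.73 on the sham arrays, 2.23 to 2.29 on the pBOO arrays and 2.31 to 2.49 on the tolterodine arrays. Ndufb9 of complex I was 4.69, 4.72 and 4.76 on the sham arrays, 3.91, 3.87 and 3.96 on the pBOO arrays and 4.15, 3.94 and 4.30 on the tolterodine arrays and fell by 0.70 (SE 0.10, adjusted p = 0.00161). Of the 6 members separated past the test 4, Ndufb9 among them, were alike in both obstructed groups, where 33.2% of all such genes below sham were. Cox7b of complex IV was 3.21, 3.59 and 3.49 on the sham arrays, 2.26, 2.26 and 2.25 on the pBOO arrays and 2.83, 2.68 and 2.81 on the tolterodine arrays. Its 3 groups were clear of each other, and its fall was -0.91 (SE 0.11, adjusted p = 0.000636).

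In cholesterol synthesis 10 of 22 genes fell and none rose, against 14.3% and 20.1% over all genes (median -0.42, with -0.60 in pBOO and -0.12 with tolterodine). Members on every array averaged -0.04 to 0.40 on the sham arrays and -0.72 to -0.42 on the pBOO arrays. On the tolterodine arrays they averaged 0.12 to 0.17, within the sham range. The list median was -0.045 within the slide of tolterodine and sham arrays. Fdps, which makes farnesyl diphosphate, was 3.20, 2.81 and 2.92 on the sham arrays, 1.32, 2.20 and 1.80 on the pBOO arrays and 2.24, 2.23 and 2.15 on the tolterodine arrays and fell by 0.99 (SE 0.18, adjusted p = 0.00449). Within the slide of pBOO and sham array 1 it was -1.43. Of 26 genes of glycolysis and hypoxia 8 rose and none fell (median 0.18, with 0.49 in pBOO and 0.25 with tolterodine). Separated above sham past the test were 6, where 11.6% of genes on every array were. Oxidative stress defence had 3 of 24 higher and 8 lower, with medians of -0.75 in pBOO and 0.37 with tolterodine. In limma's test of tolterodine minus pBOO 18 of the 24 were higher with tolterodine, against 26% over all genes. The unfolded protein response had 1 of 24 higher and 6 lower, with medians of -0.30 and 0.13.

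Of 15 tested endothelial markers 7 rose, none fell and 8 did not pass the test (median 0.39, with 0.40 in pBOO and 0.25 with tolterodine), where 20.1% of all genes rose. Of 8 pericyte markers 6 rose and 1 fell (median 0.66, with 1.03 in pBOO and 0.01 with tolterodine, and -0.08 within the slide of tolterodine and sham arrays). Cd34, an adhesion protein of endothelium and of stromal cells, was -4.41, -4.50 and -4.65 on the sham arrays, -2.37, -2.43 and -2.44 on the pBOO arrays and -2.78, -2.74 and -2.72 on the tolterodine arrays. It rose by 1.94 (SE 0.09, adjusted p = 2.07e-05), and most of the rise remained with tolterodine. Cldn5, a claudin of endothelial tight junctions, was -4.52, -4.66 and -4.56 on the sham arrays, -2.21, -2.56 and -2.39 on the pBOO arrays and -3.45, -3.30 and -3.31 on the tolterodine arrays and rose by 1.71 (SE 0.10, adjusted p = 3.9e-05). Pdgfrb, the PDGF receptor of pericytes and fibroblasts, was -1.15, -1.11 and -1.15 on the sham arrays, 0.59, -0.08 and 0.28 on the pBOO arrays and -0.47, -0.35 and -0.46 on the tolterodine arrays and rose by 1.06 (SE 0.14, adjusted p = 0.00116). All 3 genes were nearer to sham with tolterodine.

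In several lists the pooled value averaged obstructed groups that lay on opposite sides of sham, and few members or none were separated. The counts below stand beside 20.1% higher and 14.3% lower over all genes. The cell cycle list had 18 of 32 lower and 1 higher, with a median of -1.36 in pBOO and 0.08 with tolterodine, and none of its genes was separated past the test. Cytokines and chemokines had 13 of 31 lower and 5 higher, with -1.32 and 0.27. Macrophage markers had 4 of 19 higher and 3 lower, with medians of -0.85 and 0.85. The 17 on every array averaged -0.65 to -0.35 on the sham arrays, -1.34 to -1.31 on the pBOO arrays and 0.34 to 0.39 on the tolterodine arrays. Neutrophil markers had 3 of 9 lower with -1.67 and 0.70, and complement genes 2 of 19 higher and 2 lower with -0.73 and 0.49. In macrophage markers 1 gene was separated past the test, in complement 1 and in neutrophil markers none. Of T and NK cell markers 3 of 15 rose and 1 fell, with medians of -0.19 and 0.55, 1 of 3 B and plasma cell markers fell, and mast cell markers had 2 of 10 in each direction. Nerve and Schwann cell markers had 3 of 14 higher and 2 lower, with 0.46 and 0.04. The rises among macrophage, T and NK cell, mast cell and nerve markers were near the 20.1% over all genes. Adipocyte markers had 1 of 8 in each direction and a median of -0.54, with -0.42 in pBOO and -0.52 with tolterodine. That median was -1.01 within the slide of tolterodine and sham arrays and 0.39 within that of pBOO and sham array 1, so its sign changed. The adipocyte, nerve and mast cell lists had both group medians on the same side of sham. The mast cell median was -0.265 in pBOO but 0.90 within the slide of pBOO and sham array 1. The nerve median was 0.04 with tolterodine but -0.09 within the slide of tolterodine and sham arrays.

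**Figure D4:**
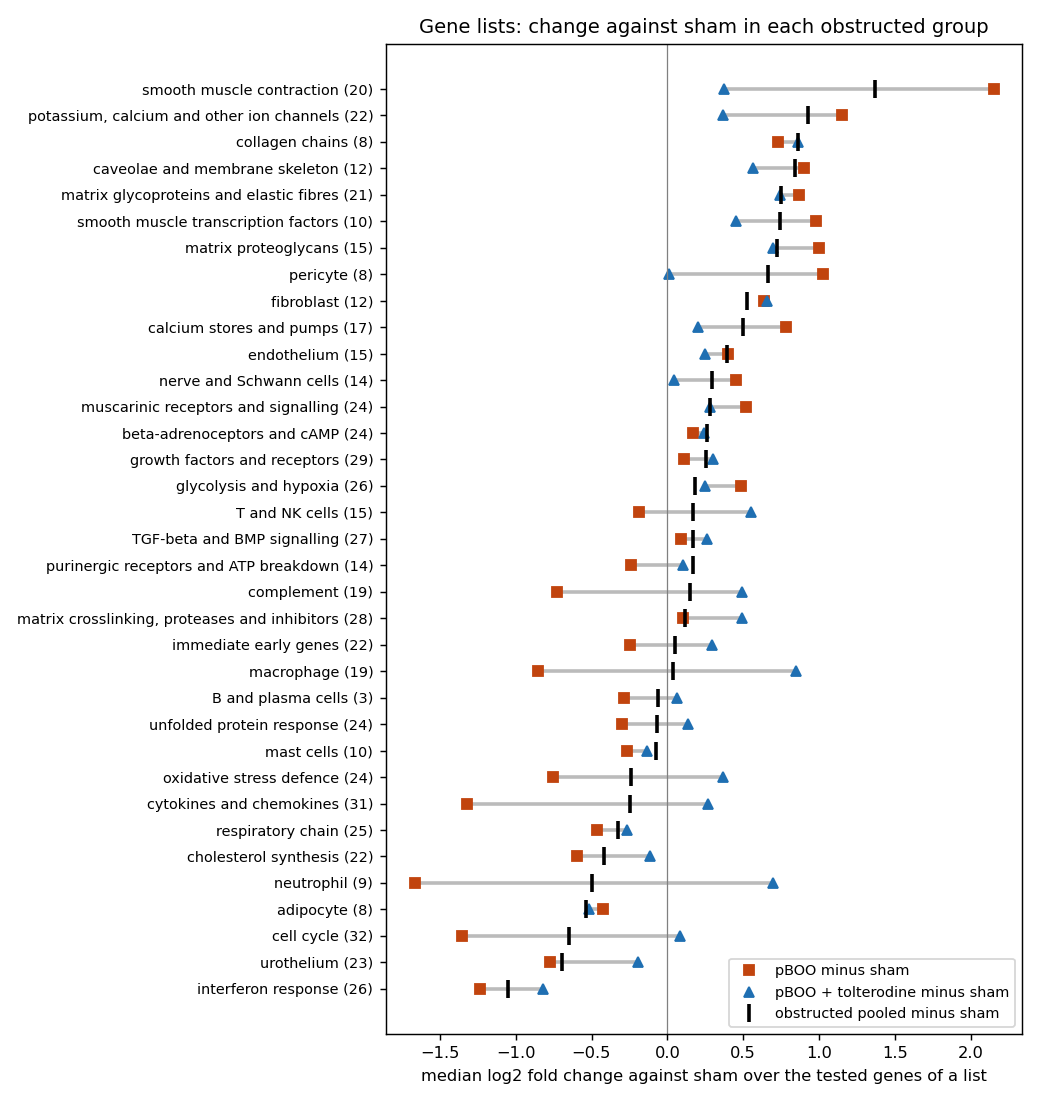
Median log2 change against sham over the tested genes of each of 35 lists, with the number of tested genes in brackets, for pBOO (orange squares), pBOO with tolterodine (blue triangles) and the pooled contrast (black bars). Contraction genes have medians of 2.15 and 0.37, collagens 0.73 and 0.86, interferon genes -1.23 and -0.82, and neutrophil markers lie on opposite sides of 0 with -1.67 and 0.70.

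The alike genes, in which the 95% interval bounds the difference between the obstructed groups at 0.5 log2 units, numbered 239 above sham, with medians of 0.58 in pBOO and 0.56 with tolterodine, and 225 below, with -0.46 and -0.42. Among alike genes well above background on all 9 arrays, the steepest rise was that of Lrrc58, a leucine-rich repeat protein, which was -4.81, -5.45 and -5.09 on the sham arrays, -3.51, -3.27 and -3.41 on the pBOO arrays and -3.53, -3.28 and -3.49 on the tolterodine arrays. Its rise was 1.70 (SE 0.15, adjusted p = 0.000167). Klf2, a transcription factor that endothelium expresses under flow, was -3.24, -3.22 and -3.30 on the sham arrays, -1.86, -1.83 and -1.77 on the pBOO arrays and -1.91, -1.72 and -2.18 on the tolterodine arrays. It rose by 1.38 (SE 0.11, adjusted p = 0.000125), with 1.44 in pBOO and 1.32 with tolterodine. Chrd, chordin, a secreted inhibitor of BMP ligands, was -3.23, -2.94 and -3.12 on the sham arrays, -1.51, -1.97 and -1.77 on the pBOO arrays and -1.88, -1.75 and -1.65 on the tolterodine arrays and rose by 1.34 (SE 0.13, adjusted p = 0.000247). Its tolterodine minus pBOO interval ran from -0.33 to 0.33.

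Rab31, a small GTPase of vesicle transport, was 0.69, 0.68 and 0.70 on the sham arrays, 2.33, 1.54 and 1.96 on the pBOO arrays and 1.97, 1.96 and 2.07 on the tolterodine arrays. Its sham arrays were nearly equal and the pBOO arrays spread most, and it rose by 1.28 (SE 0.16, adjusted p = 0.000867). Steap2, a metalloreductase, rose by 1.26 (SE 0.16, adjusted p = 0.000962). Rab31 was 1.25 and Steap2 1.38 within the slide of pBOO and sham array 1. Of the alike falls Cnksr1, a scaffold protein of Ras signalling, was -1.51, -2.0 and -1.57 on the sham arrays, -3.65, -3.35 and -3.31 on the pBOO arrays and -3.53, -3.65 and -3.43 on the tolterodine arrays. It fell by 1.79 (SE 0.14, adjusted p = 0.000107), with -1.74 in pBOO and -1.84 with tolterodine. The next falls were C1h19orf12 (-1.04, SE 0.13), Bola1 of mitochondrial iron-sulfur metabolism (-0.89, SE 0.14), C10h1orf35 (-0.87, SE 0.16) and Trappc6a of the TRAPP vesicle tethering complex (-0.85, SE 0.14). Within that slide C10h1orf35 was -0.60 and Trappc6a -0.60.

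A smaller group moved farther from sham with tolterodine. Nrgn, neurogranin, which binds calmodulin, was -1.72, -1.70 and -1.70 on the sham arrays, -1.52, -1.58 and -1.46 on the pBOO arrays and 0.21, 0.28 and 0.14 on the tolterodine arrays. The pBOO arrays lay just above sham, by 0.19, and the tolterodine arrays 1.92 above it. Kcnmb2, a β subunit of the channel whose pore is Kcnma1, was -2.46, -2.85 and -2.75 on the sham arrays, -2.14, -2.29 and -2.17 on the pBOO arrays and -0.55, -0.65 and -0.35 on the tolterodine arrays. It had the same order, with a pooled rise of 1.33 (SE 0.12, adjusted p = 0.000201). Gpx3, a secreted glutathione peroxidase, was -2.58, -2.93 and -2.80 on the sham arrays, -2.45, -2.02 and -2.23 on the pBOO arrays and -0.82, -0.61 and -0.79 on the tolterodine arrays and rose by 1.28 (SE 0.13, adjusted p = 0.000319). Gsk3a, a kinase of glycogen and Wnt signalling, rose by 1.72 (SE 0.39, adjusted p = 0.0108), with tolterodine array 3 at 2.96 far above the others. With the obstructed arrays as 1 group the calls of Nrgn (adjusted p = 0.209), Kcnmb2 (adjusted p = 0.121), Gpx3 (adjusted p = 0.102) and Gsk3a (adjusted p = 0.0841) were lost. Within the slide of pBOO and sham array 1 their differences were 0.20, 0.26, 0.35 and 0.49.

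Below sham, Id1, an inhibitor of helix-loop-helix factors and a target of BMP signalling, was 3.94, 3.83 and 3.87 on the sham arrays, 3.45, 3.79 and 3.61 on the pBOO arrays and 2.82, 2.62 and 3.03 on the tolterodine arrays. It fell by 0.66 (SE 0.12, adjusted p = 0.00419), with -0.27 in pBOO and -1.06 with tolterodine. Kcnk2, a background potassium channel opened by stretch, was -2.04, -1.90 and -1.89 on the sham arrays, -2.37, -2.30 and -2.28 on the pBOO arrays and -2.89, -3.10 and -2.85 on the tolterodine arrays. Its fall was -0.69 (SE 0.10, adjusted p = 0.00143), and the mean over its probes gave -0.14 (adjusted p = 0.46), so its probes disagreed. Calml3, a calmodulin-like protein of epithelium, fell by 0.97 (SE 0.17, adjusted p = 0.00416). Slc38a5, an amino acid transporter, fell by 0.79 (SE 0.26, adjusted p = 0.0454), and the call was lost without any 1 of 7 arrays, with adjusted p-values from 0.0605 without pBOO array 1 to 0.119 without sham array 2. As 1 obstructed group the calls of Id1 (adjusted p = 0.134), Kcnk2 (adjusted p = 0.0719), Calml3 (adjusted p = 0.0741) and Slc38a5 (adjusted p = 0.192) were lost. Within the slide of pBOO and sham array 1 their differences were -0.33, -0.27, -0.30 and -0.30.

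At the edge of the rule, Vta1 had a gap of 0.000135 log2 units between the nearest sham and obstructed arrays and Rbm48 one of 0.000364, both inside it, while Dph5 with a gap of -7.62e-05 and Isoc2b with -0.000275 lay outside it. Gaps over 1 log2 unit were found for 50 genes above sham and 5 below. Of the separated genes that passed the test, 435 were more than 2-fold higher and 101 more than 2-fold lower, and 1064 also passed the test in both single comparisons with sham.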

How the data were processed

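Total RNA from 9 rat bladders or pools was hybridised to 1-colour (Cy3) Agilent arrays. The deposited values are intensities per spot: per the file headers the processed signal was background-subtracted and spatially detrended by Feature Extraction 11.0.1.1 (9.1 in the submitters' processing notes). The deposited spot flags are of another kind, 0 or 1. The authors' later steps are not described in the labels.

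The deposited intensities of 42877 non-control spots were taken to log2, and each array's 75th percentile was subtracted. Spots flagged as non-uniform or as outliers were dropped, and the spots left for a probe were averaged. Among 30367 probes, 18005 had 1 RefSeq symbol through their accession and 12362 had none. Probes well above background on at least 3 arrays were kept, with at least 2 unflagged arrays per group, and the brightest stood for its gene. This left 11049 genes.

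A limma model with 1 coefficient per group was fitted over all 9 arrays (R 4.3.3, limma 3.58.1 and version 1.17.8 of data.table), with two-sided moderated tests, 6 residual and 2.78 prior degrees of freedom, and Benjamini-Hochberg adjustment over all genes at 0.05. It was tested on simulated data. The median SE was 0.15 and the median residual SD 0.21. Named genes were, among separated genes past the test and well above background on all arrays, the 12 largest rises and falls, the 5 largest alike in each direction and the 4 farthest from sham, then 4 with a bound, up to 3 per gene list, and receptors, matrix and muscle genes of the study's question. Of the genes this gives, 79 are described, and some are not reported here.

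The members and 35 gene lists were chosen with earlier results of these data known. The lists gave 659 tested entries, besides 51 of low signal, 63 lost to flags, 81 without a probe of that name and 3 without a current symbol. Scan times in the file headers placed sham arrays 2 and 3 with tolterodine arrays 1 and 2 on slide 1, sham array 1 with the pBOO arrays on slide 2, and tolterodine array 3 alone on slide 3. Same-numbered arrays of different groups had deviations from their group means that correlated between -0.08 and 0.18. Differently numbered arrays were not set beside them, so pairing by number was neither shown nor excluded. Promoters were those of 9034 genes in the RefSeq set on GRCr8.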

Additional observations from a re-analysis of the deposited data

Results flagged for a closer look

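Of the 79 genes described, 41 differed between the obstructed groups in limma's test of tolterodine minus pBOO at an adjusted p under 0.05, so the change against sham was not the same in both. Of these, 20 lay above sham and were lower with tolterodine than without. Among muscle, channel and signalling genes and other leading rises, the log2 differences were -1.57 for Zcchc24, -2.50 for Atp2b4, -2.29 for Prkaa2, -1.66 for Adamtsl4, -1.41 for Pwwp3b, -1.55 for Slc2a13, -1.17 for Tns1, -2.69 for Lmod1, -1.86 for Mylk and -0.52 for Myocd. For the others of this kind they were -2.14 for Cacna1c, -2.05 for Atp2a3, -0.38 for Rock2, -1.50 for Chrm3, -1.07 for Fbln1, -1.58 for Ltbp1, -0.47 for Col14a1, -0.33 for Cd34, -0.97 for Cldn5 and -0.69 for Pdgfrb.

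Genes below sham that were higher with tolterodine than without differed by 1.20 for Gkn1, 0.96 for Ifit3, 1.61 for Ivl, 0.51 for Grk2, 0.98 for Krt5, 0.52 for Cox7b and 0.68 for Cxcl10. Genes above sham that moved farther from it differed by 1.09 for Fam180a, 0.60 for Arhgap28, 1.73 for Nrgn, 1.68 for Kcnmb2, 1.50 for Gpx3, 1.42 for Gsk3a and 1.35 for Fn1. Genes below sham that moved farther from it differed by -0.87 for Slc38a5, -0.85 for Calml3, -0.79 for Id1 and -0.63 for Kcnk2. Outside the separated genes the differences were -3.97 for Adrb3, 0.56 for Col1a1 and -2.57 for Myh11. Adrb3 had the largest difference of the 41 genes, and its pBOO and tolterodine groups lay on opposite sides of the sham mean. The pBOO and tolterodine arrays shared no slide, so their differences cannot be told apart from those between slides. A fixed block for slide sets pBOO against sham array 1 only. With that block, 374 separated genes past the test were nearer to sham, against 537 without it. They share 286 genes, so 251 of the 537 left the class and 88 others entered it.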

How the results depend on the processing

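With normexp background correction 1886 genes passed the test (891 higher, 995 lower), 1361 were separated and 288 of those past the test were nearer to sham with tolterodine, against 3794, 2045 and 537. With the 6 obstructed arrays as 1 group, so that the difference between its parts counted as spread, 952 passed, and 21 of the 79 genes described lost their call (adjusted p from 0.0523 to 0.317). Within slide 1 the call was lost for 2 of 78 genes tested there. Slide 2, of the pBOO arrays and sham array 1, holds no spread between sham arrays, so calls within it are not counted. Leaving out 1 array gave 2083 (without sham 3) to 4227 (without sham 1) genes past the test. Without 1 array 2084 (without pBOO 3) to 3585 (without sham 1) were separated, where fewer arrays ease the rule by construction, and 382 (without pBOO 3) to 830 (without sham 1) were nearer to sham. Quantile scaling, flagged spots kept, no filter on dim probes, means over probes and both slide blocks kept the count of genes past the test within 1.5 times, between 3267 and 5315. The alike genes numbered 193 with slide as a fixed block, 303 with normexp and 184 (without sham 3) to 837 (without sham 1) without 1 array, against 464. They numbered 191 without pBOO 3, 216 without tolterodine 1, 261 without tolterodine 2, 267 without sham 2 and 696 without tolterodine 3. Whether same-numbered arrays are paired is not known. With replicate number as a block 3373 genes passed the test, 3238 of them also without it, and 478 were nearer to sham. Of the 1845 separated genes past the test, 1602 were well above background on all 9 arrays, and signal over background limits the others. Within slide 1 Adrb3 was -2.33 and Myh11 -0.44, reversed from the pooled values.

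With the names of sham and pBOO exchanged, 5053 genes passed the test, 2586 of them also under the titles, and 3680 were separated. Of the 79 genes described, 66 then changed sign, as the exchange itself brings about where pBOO and sham differ. Log2 values below 0 were Adrb3 -3.28, Atp2b4 -3.22, Lmod1 -3.03, Prkaa2 -2.89, Zcchc24 -2.67, Myh11 -2.58, Cacna1c -2.56, Atp2a3 -2.54, Adamtsl4 -2.37, Mylk -2.31, Cnr1 -2.26, Slc2a13 -2.20, Pwwp3b -2.13, Ltbp1 -2.06, Tns1 -1.94, Chrm3 -1.87, Fbln1 -1.70, Prkacb -1.67, Map1a -1.66, Cldn5 -1.58, Cd34 -1.22, Kcnma1 -1.11, Rock2 -1.06, Pdgfrb -1.05, Plod1 -1.01, Tgfb2 -0.95, Myocd -0.93, Col5a3 -0.91, Lrrc58 -0.88, Col14a1 -0.85, Tgfbr3 -0.82, Gpc3 -0.78, Klf2 -0.78, Polm -0.74, Arhgap28 -0.68, Steap2 -0.68, Chrd -0.67, Rab31 -0.60, Fam180a -0.48, Chrm2 -0.48, Crygf -0.42, Foxe1 -0.32. Values above 0 were Aldh1a1 0.28, C10h1orf35 0.40, Ndufb9 0.51, Trappc6a 0.52, Bola1 0.52, C1h19orf12 0.52, Avil 0.59, Grk2 0.62, RT1-M4 0.78, Cnksr1 0.82, Fdps 0.82, Cox7b 0.85, Tp53i11 1.00, Cxcl10 1.17, Inhbb 1.26, Isg15 1.26, Krt5 1.48, Rhox5 1.61, Ifit3 1.76, Mx1 1.77, Ptprv 2.01, Gkn1 2.05, Ivl 2.21, Fcrla 3.46.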

Other observations

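Probes without a gene symbol showed the same kind of separation. Of 6836 unnamed probes with a value on every array, 854 had all obstructed arrays above sham and 450 had all below, which is 19.1%, and 2177 passed limma's test.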
